A study of Homo sapiens with 9 samples.

Results

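Interferon response genes are the genes that a cell switches on when a type I, II or III interferon binds its receptor, and many of their products act against viruses. The set described here holds 44 such genes, chosen by symbol from a list and matched to the Ensembl identifiers of the count table. All 44 were found among the 57905 genes of the table, and 37 of them had enough counts to be tested, of 13252 genes tested in all. RNA was sequenced from KYSE180, an established human line of esophageal squamous cell carcinoma. The series title calls it KDM6A-deficient, so all groups lack normal function of KDM6A, an enzyme that removes the methyl groups EZH2 places on histone H3. Every group also received 6 Gy of ionizing radiation, and no unirradiated sample was analysed here. The control carried a hairpin against luciferase (shluc, genotype label WT), and the other groups carried either of 2 hairpins against EZH2, named shEZH2#1 and shEZH2#3, with 3 libraries in each of the 3 groups. Their genotype label reads EZH2 knockout, whereas the titles and the design text describe hairpins and a knockdown. No label says that libraries of a group came from separate cultures, or whether a hairpin line is a clone, so a p-value here reflects nothing but the spread between the libraries at hand, which may be technical.

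In the classical pathway, interferon receptors activate the kinases JAK1 and TYK2, which phosphorylate STAT proteins. STAT2, IRF9 and a further STAT protein then form the transcription factor ISGF3, which binds the interferon-stimulated response element (ISRE) in the promoters of its target genes. EZH2 is the methyltransferase of Polycomb repressive complex 2, and the comparison addresses how the expression of these genes in irradiated cells differs when EZH2 is lowered.

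Promoter sequences are shown first, since the ISRE is the element through which ISGF3 acts. RefSeq promoters (GRCh38.p14, from 250 bases before to 50 bases after a start site, 300 bases in all) were matched for 37 of the 44 members. The core of the element, searched as GAAANNGAA or its reverse complement TTCNNTTTC, occurred in 27 of these 37 members (73.0%), against 2693 of 27305 genes (9.86%) in the whole promoter table. The gamma-activated site, TTCNNNGAA, which is its own reverse complement, occurred in 13 of the 37 (35.1%) and in 2560 genes (9.38%). Its letters can overlap those of the ISRE core. Below are upstream stretches from ISG20 and IFI6, which were higher with both hairpins, and from 7 members chosen after their values were seen: ISG15 and IFI27, higher with shEZH2#1 alone, IFITM1, IFITM3 and LGALS3BP, higher with shEZH2#3 alone, and IFIT3 and PARP9, lower with shEZH2#3. Each reads 5′ to 3′ on the strand of its gene, and the capitals mark the ISRE core or its reverse complement.
ISG20 (chr15:88638932-88638970, plus strand): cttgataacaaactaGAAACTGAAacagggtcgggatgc
IFI6 (chr1:27672262-27672363, minus strand): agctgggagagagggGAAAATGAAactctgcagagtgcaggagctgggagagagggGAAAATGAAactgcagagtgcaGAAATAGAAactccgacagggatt
ISG15 (chr1:1013369-1013419, plus strand): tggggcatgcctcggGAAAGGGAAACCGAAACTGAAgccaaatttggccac
IFI27 (chr14:94110614-94110664, plus strand): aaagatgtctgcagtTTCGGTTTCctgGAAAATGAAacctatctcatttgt
IFITM1 (chr11:313985-314023, plus strand): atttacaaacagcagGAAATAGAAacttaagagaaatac
IFITM3 (chr11:320872-320927, minus strand): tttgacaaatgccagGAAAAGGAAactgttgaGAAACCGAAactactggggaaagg
LGALS3BP (chr17:78979958-78979996, minus strand): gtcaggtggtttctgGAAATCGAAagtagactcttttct
IFIT3 (chr10:89327827-89327899, plus strand): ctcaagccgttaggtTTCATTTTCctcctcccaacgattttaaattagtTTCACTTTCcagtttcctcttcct
PARP9 (chr3:122564317-122564355, minus strand): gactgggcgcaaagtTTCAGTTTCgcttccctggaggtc

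Stretches were printed only for members with a core before the start site, so its presence in each was set by that choice. Over all matched members, shown or not, the core was found in 5 of 5 lower and 6 of 10 higher with shEZH2#3. It was also found in 4 of 7 higher with shEZH2#1 and in 7 of 12 called in no comparison, so members of either direction carried it. STAT2, IRF9, IFI35 and UBE2L6 rose with shEZH2#3 and had no such letters in their windows. A match of letters is a description of the window and shows no binding.

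Library totals ran from 14958011 to 21152006 estimated counts, so that 1 count was worth 0.0473 to 0.0669 CPM (counts scaled to a common library total) before further scaling. Levels below are CPM on library sizes scaled by the trimmed mean of M values (TMM), with scaling factors from 0.827 to 1.33, and libraries are listed as replicates 1, 2 and 3. EZH2, the targeted gene, stood at 18.4, 20.1 and 19.5 CPM under shluc, 11.6, 11.4 and 7.28 under shEZH2#1 and 9.67, 11.0 and 9.11 under shEZH2#3. All 6 hairpin libraries lay below all 3 control libraries. EZH2 fell by 0.94 ± 0.18 on the log2 scale (SE, adjusted p = 0.00163) with shEZH2#1 and fell by 0.96 ± 0.18 (adjusted p = 0.000433) with shEZH2#3, and the hairpins differed by 0.02 ± 0.19 (adjusted p = 0.943). After a correction that removes a smooth of GC content and length from each library, EZH2 fell by 0.72 ± 0.15 (adjusted p = 0.00411) and fell by 0.55 ± 0.15 (adjusted p = 0.0142). Of 10 squamous epithelial markers checked against the cell type label, KRT17, SFN and TRIM29 stood at 323 CPM or more in every library. The other 7 (KRT5, KRT14, KRT6A, TP63, SOX2, DSG3 and PKP1) stayed at or below 1.03 CPM in every library.

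A member was called when its edgeR quasi-likelihood test gave a Benjamini-Hochberg adjusted p below 0.05 over all 13252 genes. With shEZH2#1, 9 of the 37 tested members were higher than in shluc (24.3%) and 0 were lower, where 11.2% of all tested genes were higher and 7.89% lower. Beside the 0 from edgeR, DESeq2 and limma-voom also called 0 members lower with shEZH2#1, and 1 member, OAS3, was lower at an unadjusted p below 0.05. With shEZH2#3, 11 members were higher (29.7%) and 7 lower (18.9%), where 24.4% of all genes were higher and 19.8% lower, so that the members' shares lay near the background. Set directly against shEZH2#3, shEZH2#1 had 14 members higher (37.8%) and 5 lower (13.5%), where 9.46% of all genes were higher and 15.5% lower. The median log2 difference over the 37 members was 0.18 with shEZH2#1, 0.04 with shEZH2#3 and 0.49 between the hairpins, beside medians of -0.07, -0.01 and 0.01 over all tested genes. Both hairpin comparisons use the same shluc libraries. In a bulk sample, fewer cells that express a gene and less RNA per cell cannot be told apart.

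The 37 members split by what the hairpins did. IFI6, IRF9, ISG20, IFI35 and UBE2L6 were higher with both hairpins. ISG15, IFI27, IRF7 and OASL were called higher with shEZH2#1 alone, and all 4 also stood higher in shEZH2#1 than in shEZH2#3. IFITM1, IFITM2, IFITM3, STAT2, LGALS3BP and BST2 were called higher with shEZH2#3 alone, and all but BST2 differed between the hairpins. IFI16, IFIT2, IFIT3, HERC5, PARP9, DTX3L and USP18 were lower with shEZH2#3, and none of the 37 was called in opposite directions against shluc in this fit. After the GC and length correction, LGALS3BP and IFITM2 were called lower with shEZH2#1 and higher with shEZH2#3. DDX60, IFIT1 and OAS2 differed between the hairpins without passing against shluc. The remaining 12 passed in no comparison.

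**Figure D1:**
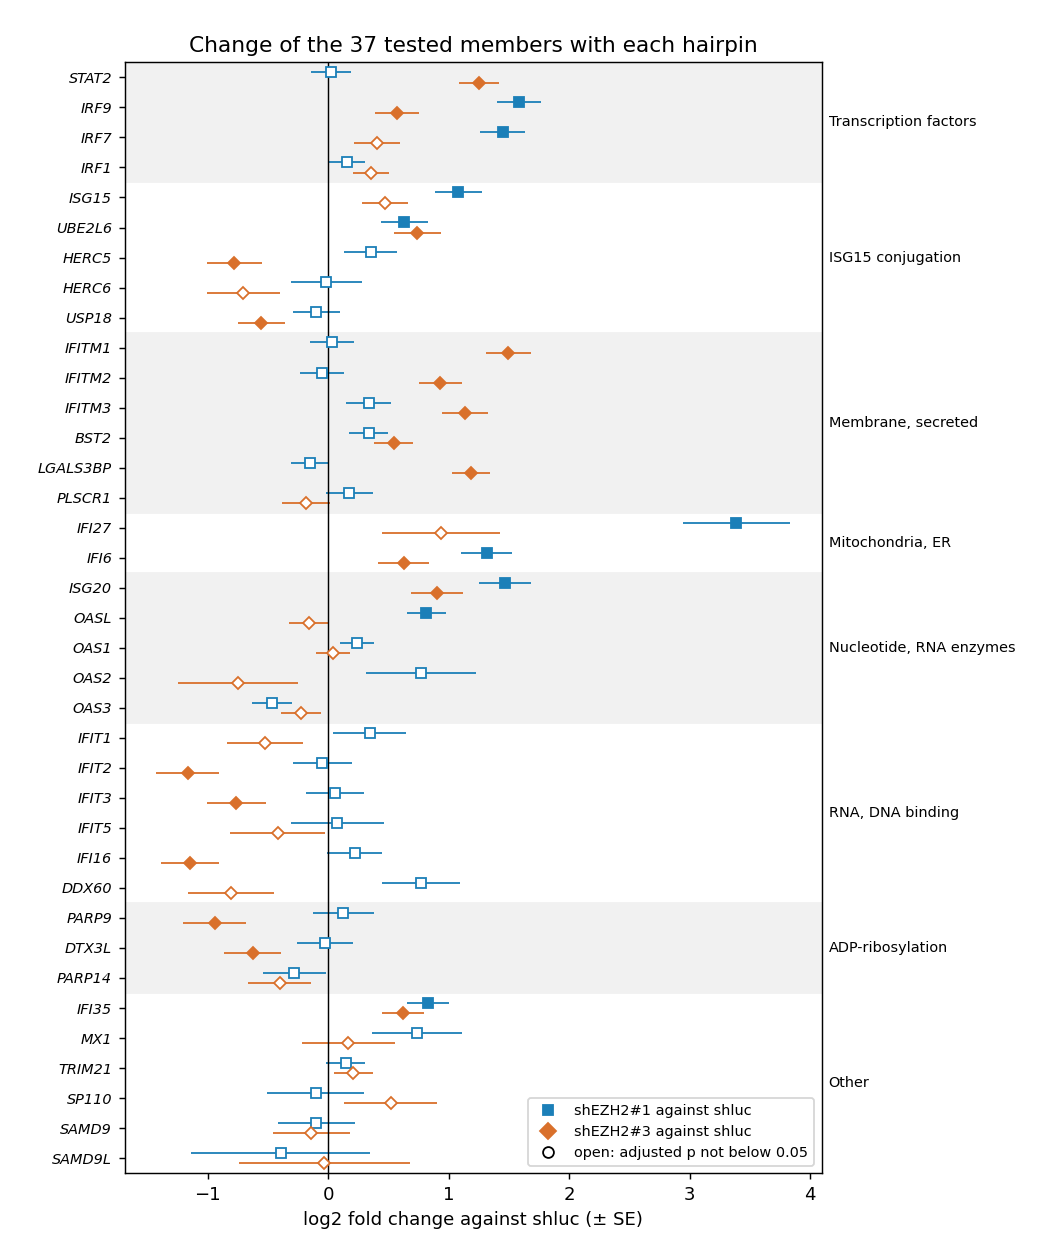
log2 fold change against shluc (x axis, with SE bars) of the 37 tested members, grouped by role, for shEZH2#1 (blue squares) and shEZH2#3 (orange diamonds). Filled symbols are members with an adjusted p below 0.05. IFI27 reaches 3.39 with shEZH2#1, STAT2 and the IFITM genes stand apart with shEZH2#3, and IFIT2 and IFI16 lie below -1 with shEZH2#3.

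Levels differed widely within the set. Per kilobase of transcript, the highest in shluc were IFITM3 at 688 ± 111 CPM per kb (SD, n = 3), BST2 at 421 ± 91.4, LGALS3BP at 416 ± 47.7 and IFITM2 at 329 ± 36.4. BST2 and LGALS3BP did not differ beyond their spread. ISG15 followed at 124 ± 41.6 and IFI6 at 91.9 ± 29.2 CPM per kb, with overlapping spreads, and IFITM1 came next at 54.5 ± 10.6. The classical type I targets MX1 and IFIT1 stood at 0.410 ± 0.0761 and 0.445 ± 0.0576 CPM per kb, and the antiviral helicase-like gene DDX60 at 0.258 ± 0.0458. In shEZH2#3 the order at the top was IFITM3 at 1509 ± 430, LGALS3BP at 945 ± 98.1, IFITM2 at 628 ± 164 and BST2 at 615 ± 12.6 CPM per kb, the last pair within their spread. The 44 members together took 0.341 to 0.357% of counts under shluc, 0.334 to 0.340% under shEZH2#1 and 0.446 to 0.499% under shEZH2#3. The shEZH2#3 libraries thus held the largest share. Over the same libraries 2 abundant unnamed genes took 6.96 to 9.28%, 15.8 to 22.6% and 5.97 to 11.6% of counts, and mitochondrial genes 3.36 to 4.33%, 1.61 to 1.86% and 5.43 to 7.60%. With the 2 unnamed genes left out of the totals, the members' share was 0.367 to 0.394% under shluc, 0.404 to 0.432% under shEZH2#1 and 0.486 to 0.565% under shEZH2#3, so that shEZH2#1 then lay above shluc. Of the members' counts, IFITM1, IFITM2, IFITM3, BST2 and LGALS3BP made up 77.2 to 78.7% under shluc, 69.1 to 73.3% under shEZH2#1 and 83.5 to 88.4% under shEZH2#3.

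**Figure D2:**
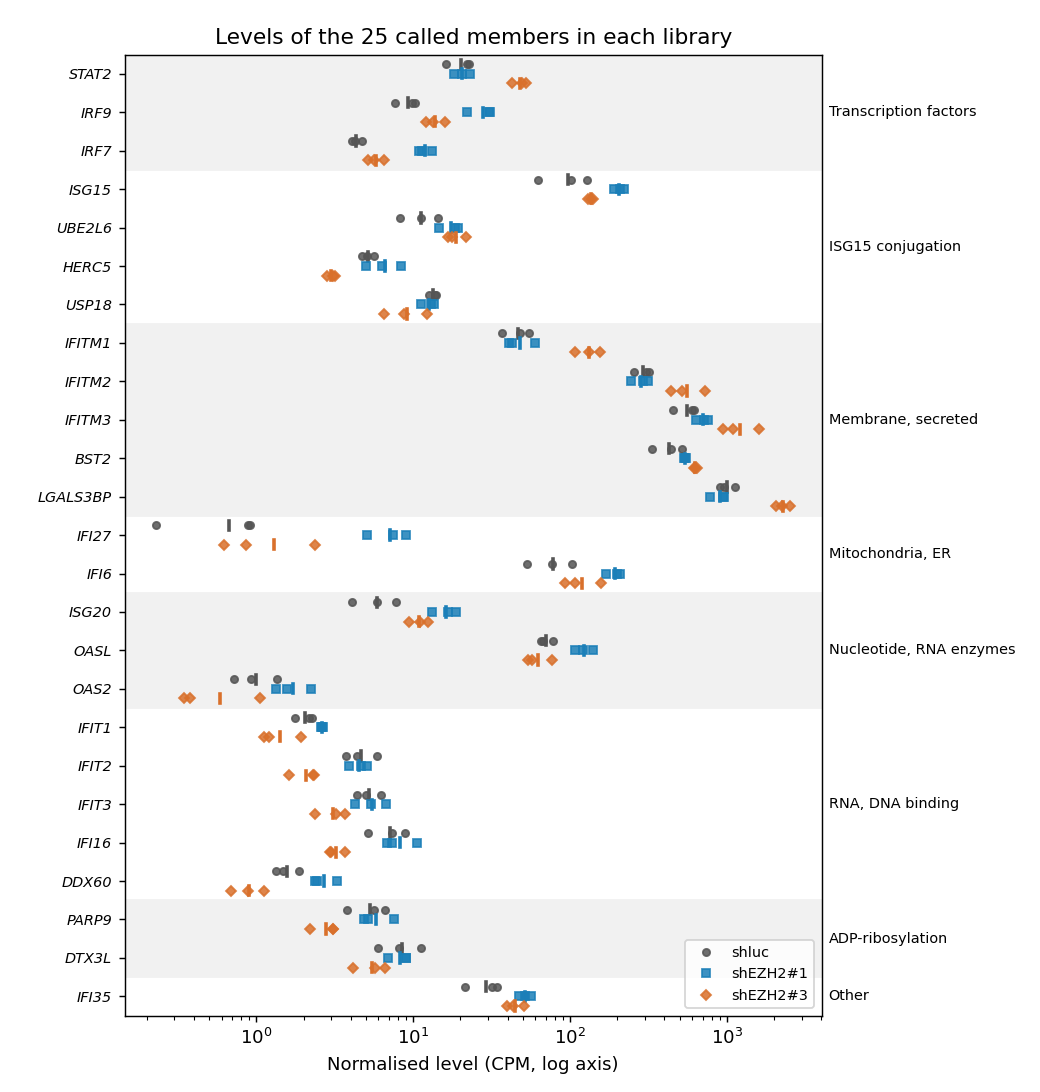
Normalised level (CPM, log axis) of the 25 members called in any comparison, in each of the 9 libraries; gray circles are shluc, blue squares shEZH2#1 and orange diamonds shEZH2#3, with a vertical bar at each group's mean. IRF9 and ISG20 form 3 separate groups, whereas STAT2 in shEZH2#1 overlaps the shluc libraries.

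Subunits of ISGF3 moved with different hairpins. STAT2 (ENSG00000170581, chr12:56341597-56360155, minus strand), the subunit that carries the activation domain, stood at 22.6, 21.9 and 16.2 CPM under shluc, 18.3, 23.0 and 20.4 under shEZH2#1 and 49.6, 52.1 and 42.9 under shEZH2#3. The 3 shEZH2#3 libraries lay above all others, and the shEZH2#1 libraries overlapped the shluc libraries. The log2 difference from shluc was 1.25 ± 0.16 (adjusted p = 2.22e-05) with shEZH2#3 and 0.02 ± 0.17 (adjusted p = 0.941) with shEZH2#1, and shEZH2#1 minus shEZH2#3 gave -1.23 ± 0.17 (adjusted p = 2.95e-05). IRF9 (ENSG00000213928, chr14:24161053-24166565, plus strand), the DNA-binding subunit, stood at 10.3, 7.66 and 9.82 CPM under shluc, 30.7, 22.2 and 30.2 under shEZH2#1 and 13.3, 12 and 15.9 under shEZH2#3. The 3 groups did not overlap, with shEZH2#1 highest and shluc lowest. IRF9 rose by 1.58 ± 0.18 (adjusted p = 2.63e-05) with shEZH2#1 and by 0.57 ± 0.18 (adjusted p = 0.0166) with shEZH2#3, and the hairpins differed by 1.01 ± 0.18 (adjusted p = 0.000433). The shEZH2#3 call of IRF9 was lost without shluc replicate 2 (log2 0.45, adjusted p = 0.0732), without shEZH2#3 replicate 3 (log2 0.45, adjusted p = 0.0869), under upper quartile scaling and after the GC and length correction (at 0.25 ± 0.15, adjusted p = 0.269). IRF9 held decimals in all 9 libraries and shares exons with the read-through gene AL136295.5, whose mean level was 1.86 CPM under shluc, 2.86 under shEZH2#1 and 2.07 under shEZH2#3.

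IRF7 and IRF1 are transcription factors upstream of many interferon genes. IRF7 (ENSG00000185507, chr11:612553-615999, minus strand), which drives the transcription of interferon alpha genes, stood at 4.70, 4.23 and 4.07 CPM under shluc, 11.4, 13.2 and 10.9 under shEZH2#1 and 5.15, 6.48 and 5.63 under shEZH2#3. The shEZH2#1 libraries were the highest, and the shEZH2#3 libraries also lay above the shluc libraries. The rise with shEZH2#1 was 1.45 ± 0.19 (adjusted p = 6.48e-05), or 0.86 ± 0.18 (adjusted p = 0.0045) after the GC and length correction, and the hairpins differed by 1.04 ± 0.19 (adjusted p = 0.000455). With shEZH2#3 the difference was 0.41 ± 0.19 (adjusted p = 0.0889), which did not pass, and its sign turned after the GC and length correction (at -0.35 ± 0.18, adjusted p = 0.195). IRF1, a factor strongly induced by interferon gamma, passed in no comparison, with 44 ± 6.46 CPM under shluc, 49.0 ± 2.87 under shEZH2#1 and 56.3 ± 5.85 under shEZH2#3 (SD, n = 3).

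The ISG15 conjugation system also divided. ISG15 (ENSG00000187608, chr1:1001138-1014540, plus strand), a ubiquitin-like protein that is attached to other proteins, stood at 101, 62.9 and 128 CPM under shluc, 207, 189.6 and 222 under shEZH2#1 and 129, 140.0 and 137 under shEZH2#3. Its shEZH2#1 libraries lay above all others, and the lowest shEZH2#3 library lay just above the highest shluc library. ISG15 rose by 1.08 ± 0.19 (adjusted p = 0.000924) with shEZH2#1, or by 0.44 ± 0.13 (adjusted p = 0.0338) after the GC and length correction. With shEZH2#3 the difference of 0.47 ± 0.19 (adjusted p = 0.0502) fell short of the threshold, and it passed under DESeq2, limma-voom, no filter and a stricter filter, and without shluc replicate 3 (log2 0.72, adjusted p = 0.00432) or shEZH2#3 replicate 1 (log2 0.51, adjusted p = 0.0456). Under the correction its sign turned (to -0.36 ± 0.13, adjusted p = 0.0597). The hairpins differed by 0.61 ± 0.19 (adjusted p = 0.0255), which was lost without shEZH2#1 replicate 1 (log2 0.62, adjusted p = 0.0606) or 3 (0.55, adjusted p = 0.0873) and without shEZH2#3 replicate 2 (log2 0.63, adjusted p = 0.0512) or 3 (0.62, adjusted p = 0.0545). UBE2L6 (ENSG00000156587, chr11:57551656-57568284, minus strand), the conjugating enzyme for ISG15, stood at 11.2, 8.21 and 14.3 CPM under shluc, 14.5, 18.5 and 19.3 under shEZH2#1 and 21.9, 16.8 and 17.6 under shEZH2#3. All 6 hairpin libraries lay above the shluc libraries. UBE2L6 rose by 0.63 ± 0.20 (adjusted p = 0.03) with shEZH2#1 and by 0.74 ± 0.20 (adjusted p = 0.00562) with shEZH2#3, and neither call held after the GC and length correction (at 0.38 ± 0.14, adjusted p = 0.0874 and 0.30 ± 0.14, adjusted p = 0.15). The shEZH2#1 call was also lost without shluc replicate 1 (log2 0.63, adjusted p = 0.079) or 2 (0.44, adjusted p = 0.159) and without shEZH2#1 replicate 2 (log2 0.59, adjusted p = 0.108) or 3 (0.56, adjusted p = 0.129).

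The ligase and the protease of the same system were lower with shEZH2#3. HERC5 (ENSG00000138646, chr4:88457117-88506163, plus strand), the main ligase for ISG15 in human cells, stood at 4.74, 5.62 and 5.08 CPM under shluc, 6.29, 8.39 and 5.00 under shEZH2#1 and 2.80, 3.06 and 3.15 under shEZH2#3. The shEZH2#3 libraries lay below all others, and shEZH2#1 overlapped shluc. The log2 difference was -0.78 ± 0.23 (adjusted p = 0.0111) with shEZH2#3 and 0.35 ± 0.22 (adjusted p = 0.276) with shEZH2#1, and the hairpins differed by 1.13 ± 0.23 (adjusted p = 0.00149). After the GC and length correction the shEZH2#3 call was lost (at -0.32 ± 0.20, adjusted p = 0.261), HERC5 was called higher with shEZH2#1 (at 0.62 ± 0.18, adjusted p = 0.0319) and the difference between the hairpins was 0.94 ± 0.20 (adjusted p = 0.00272). USP18 (ENSG00000184979, chr22:18149899-18177397, plus strand), the protease that removes ISG15 and also inhibits the type I receptor, stood at 13.9, 12.5 and 13.9 CPM under shluc, 13.6, 11.2 and 12.9 under shEZH2#1 and 6.46, 8.79 and 12.2 under shEZH2#3. The shEZH2#3 libraries lay below the shluc libraries and overlapped shEZH2#1. Between the hairpins the difference was 0.46 ± 0.20 (adjusted p = 0.102), and it passed after the GC and length correction (at 0.58 ± 0.18, adjusted p = 0.0256). The log2 difference with shEZH2#3 was -0.55 ± 0.20 (adjusted p = 0.0293), and the corrected value was -0.61 ± 0.17 (adjusted p = 0.0207). This call was lost without shluc replicate 1 (log2 -0.53, adjusted p = 0.0739) or 3 (-0.53, adjusted p = 0.0557) and without shEZH2#3 replicate 1 (log2 -0.35, adjusted p = 0.155) or 2 (-0.53, adjusted p = 0.0793).

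The abundant membrane and secreted products rose with shEZH2#3. IFITM1, IFITM2 and IFITM3 restrict the entry of viruses at cell membranes and lie side by side at chr11:307631-327537. IFITM1 (ENSG00000185885, chr11:313506-315272, plus strand) stood at 47.8, 36.9 and 55.0 CPM under shluc, 40.5, 42.8 and 59.5 under shEZH2#1 and 154, 131 and 108 under shEZH2#3. IFITM2 (ENSG00000185201, chr11:307631-315272, plus strand) stood at 305, 257 and 319 CPM under shluc, 246, 291 and 314 under shEZH2#1 and 724, 518 and 439 under shEZH2#3. IFITM3 (ENSG00000142089, chr11:319669-327537, minus strand) stood at 599.7, 453 and 614 CPM under shluc, 636, 711 and 757 under shEZH2#1 and 1611, 1099 and 948 under shEZH2#3. For each of these genes the 3 shEZH2#3 libraries lay above the other 6, and shEZH2#3 replicate 1 was the highest. The rise with shEZH2#3 was 1.5 ± 0.19 (adjusted p = 1.34e-05) for IFITM1, 0.93 ± 0.18 (adjusted p = 0.000545) for IFITM2 and 1.13 ± 0.19 (adjusted p = 0.000167) for IFITM3. With shEZH2#1 the differences were 0.03 ± 0.18, -0.05 ± 0.18 and 0.34 ± 0.19, none of which passed. Set against each other, shEZH2#1 minus shEZH2#3 gave -1.46 ± 0.19 (adjusted p = 1.69e-05), -0.98 ± 0.18 (adjusted p = 0.000565) and -0.80 ± 0.19 (adjusted p = 0.00441) in the same order. These rises were smaller after the GC and length correction, at 1.17, 0.38 and 0.44, and all 3 passed (adjusted p = 0.000115, 0.032 and 0.00811). IFITM2 was then also called lower with shEZH2#1 (at -0.36 ± 0.12, adjusted p = 0.0496), but not with the replicate block added to the correction. IFITM2 and IFITM3 held decimals in all 9 libraries and IFITM1 in 2, and the annotated exons of IFITM1 and IFITM2 overlap, so the split of reads among these near-identical genes is uncertain.

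LGALS3BP (ENSG00000108679, chr17:78971238-78980109, minus strand), a secreted glycoprotein that binds galectins, stood at 1129, 909 and 961 CPM under shluc, 785, 951 and 958 under shEZH2#1 and 2235, 2526 and 2059 under shEZH2#3. The shEZH2#3 libraries lay above all others, by more than the whole range of the other 6. The log2 difference was 1.19 ± 0.16 (adjusted p = 2.63e-05) with shEZH2#3 and -0.15 ± 0.16 (adjusted p = 0.526) with shEZH2#1, and shEZH2#1 minus shEZH2#3 gave -1.34 ± 0.16 (adjusted p = 8.35e-06). After the GC and length correction the rise with shEZH2#3 was 0.59 ± 0.10 (adjusted p = 0.000807), and LGALS3BP was called lower with shEZH2#1 (at -0.50 ± 0.10, adjusted p = 0.00305). BST2 (ENSG00000130303, chr19:17402939-17405648, minus strand), or tetherin, which holds budding viruses at the cell surface, stood at 441, 331 and 516 CPM under shluc, 531, 544 and 552 under shEZH2#1 and 615, 624 and 641 under shEZH2#3. The groups did not overlap, with shEZH2#3 highest. BST2 rose by 0.55 ± 0.16 (adjusted p = 0.0113) with shEZH2#3, and after the correction nothing of this remained (at -0.00 ± 0.10, adjusted p = 0.981).

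IFI27 and IFI6 encode small hydrophobic proteins of intracellular membranes, and both were higher with shEZH2#1 than with shEZH2#3. IFI27 (ENSG00000165949, chr14:94104836-94116698, plus strand) stood at 0.230, 0.877 and 0.910 CPM under shluc, 7.44, 5.07 and 8.97 under shEZH2#1 and 0.858, 0.624 and 2.38 under shEZH2#3. The shEZH2#1 libraries lay above all others, whereas shEZH2#3 overlapped shluc. IFI27 rose by 3.39 ± 0.44 (adjusted p = 6.66e-05) with shEZH2#1, the largest change among the 37 members in any of the 3 comparisons, from 5 to 22 estimated counts per library in shluc to 84 to 123 in shEZH2#1. With shEZH2#3 the difference of 0.94 ± 0.49 (adjusted p = 0.119) did not pass, and it passed without shEZH2#3 replicate 2 (log2 1.25, adjusted p = 0.0437). The hairpins differed by 2.45 ± 0.42 (adjusted p = 0.000296), and by 2.67 ± 0.50 (adjusted p = 0.00134) after the GC and length correction. IFI6 (ENSG00000126709, chr1:27666061-27672218, minus strand) stood at 76.3, 53.3 and 102 CPM under shluc, 199, 169 and 209 under shEZH2#1 and 93.3, 108 and 157 under shEZH2#3. Again shEZH2#1 lay above all others, while shEZH2#3 overlapped shluc. IFI6 rose by 1.31 ± 0.21 (adjusted p = 0.000477) with shEZH2#1 and by 0.63 ± 0.21 (adjusted p = 0.022) with shEZH2#3, and the hairpins differed by 0.69 ± 0.21 (adjusted p = 0.0223). The shEZH2#3 call was lost without shluc replicate 1 (log2 0.62, adjusted p = 0.0642) or 2 (0.41, adjusted p = 0.130), without shEZH2#3 replicate 3 (log2 0.38, adjusted p = 0.163), under upper quartile scaling and after the correction (at 0.12 ± 0.21, adjusted p = 0.723). The difference between the hairpins was lost without shEZH2#1 replicate 1 (log2 0.67, adjusted p = 0.0689) or 3 (0.63, adjusted p = 0.0796) and without shEZH2#3 replicate 1 (log2 0.54, adjusted p = 0.0664) or 2 (0.62, adjusted p = 0.0767).

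Among enzymes that act on nucleotides and RNA, ISG20 rose with both hairpins. ISG20 (ENSG00000172183, chr15:88636153-88656483, plus strand), an exonuclease that degrades single-stranded RNA, stood at 5.90, 4.07 and 7.71 CPM under shluc, 18.9, 13.2 and 16.7 under shEZH2#1 and 12.4, 9.41 and 11.0 under shEZH2#3. The 3 groups did not overlap, with shEZH2#1 highest. ISG20 rose by 1.47 ± 0.22 (adjusted p = 0.000222) with shEZH2#1 and by 0.90 ± 0.22 (adjusted p = 0.0029) with shEZH2#3, and both passed after the GC and length correction (at 1.40 ± 0.19, adjusted p = 0.000308 and 0.67 ± 0.19, adjusted p = 0.021). Of the 5 members called higher with both hairpins, ISG20 alone kept both calls under that correction. Between the hairpins ISG20 differed by 0.57 ± 0.21 (adjusted p = 0.0546), which fell short of the threshold. It passed there after the correction (at 0.73 ± 0.18, adjusted p = 0.00849), under upper quartile scaling, no filter, the stricter filter and the replicate block, but not under DESeq2 or limma-voom. The oligoadenylate synthetases make the activator of RNase L, and OASL is a relative without that activity. OASL (ENSG00000135114, chr12:121019111-121039242, minus strand) stood at 77.8, 64.8 and 67.1 CPM under shluc, 120.5, 108 and 141 under shEZH2#1 and 54.1, 57.2 and 76.5 under shEZH2#3. Its shEZH2#1 libraries lay above all others. OASL rose by 0.81 ± 0.16 (adjusted p = 0.00201) with shEZH2#1, against -0.16 ± 0.16 (adjusted p = 0.432) with shEZH2#3, and the hairpins differed by 0.97 ± 0.16 (adjusted p = 0.000234). OAS2 (ENSG00000111335, chr12:112978395-113011723, plus strand) stood at 0.921, 1.36 and 0.719 CPM under shluc, 1.57, 2.23 and 1.32 under shEZH2#1 and 0.343, 0.374 and 1.05 under shEZH2#3. The hairpins did not overlap, and both overlapped shluc. Only the difference between the hairpins passed for OAS2, at 1.52 ± 0.49 (adjusted p = 0.0281). It was lost without shEZH2#1 replicate 1 (log2 1.59, adjusted p = 0.0668) or 2 (1.28, adjusted p = 0.124) and without shEZH2#3 replicate 1 (log2 1.24, adjusted p = 0.0845) or 2 (1.29, adjusted p = 0.106).

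OAS1 and OAS3 were abundant and passed in no comparison. OAS1 stood at 66.7, 57.0 and 59.2 CPM under shluc, 73.7, 71.0 and 71.7 under shEZH2#1 and 58.0, 59.6 and 70.8 under shEZH2#3, which differed from shluc by 0.24 ± 0.14 (adjusted p = 0.242) with shEZH2#1 and by 0.04 ± 0.14 (adjusted p = 0.824) with shEZH2#3. OAS3 stood at 119 ± 22.6 CPM under shluc, 86.1 ± 2.63 under shEZH2#1 and 102 ± 17.7 under shEZH2#3 (SD, n = 3), and it was called lower with shEZH2#1 without shluc replicate 3 (log2 -0.62, adjusted p = 0.00939) or shEZH2#3 replicate 1 (log2 -0.47, adjusted p = 0.0299). After the GC and length correction OAS1 was called higher with shEZH2#1 (at 0.42 ± 0.10, adjusted p = 0.00832), and OAS3 was called lower with both hairpins (at -0.37 ± 0.11, adjusted p = 0.0289 and -0.39 ± 0.11, adjusted p = 0.0183). OAS1, OAS3 and OAS2 are neighbours at chr12:112906777-113011723.

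Of the members linked to the sensing of foreign RNA or DNA, IFIT2, IFIT3 and IFI16 were lower with shEZH2#3. The protein of IFIT1 binds RNA that lacks the marks of a host cap, and the IFIT genes are neighbours at chr10:89283694-89421001. IFIT2 (ENSG00000119922, chr10:89283694-89309276, plus strand) stood at 3.73, 5.90 and 4.36 CPM under shluc, 4.66, 3.86 and 5.07 under shEZH2#1 and 2.29, 1.62 and 2.32 under shEZH2#3. IFIT3 (ENSG00000119917, chr10:89327894-89340971, plus strand) stood at 5.02, 6.22 and 4.41 CPM under shluc, 6.71, 4.23 and 5.37 under shEZH2#1 and 3.20, 2.37 and 3.65 under shEZH2#3. For both genes the shEZH2#3 libraries lay below all others, and shEZH2#1 overlapped shluc. The log2 difference with shEZH2#3 was -1.16 ± 0.26 (adjusted p = 0.00169) for IFIT2 and -0.76 ± 0.25 (adjusted p = 0.0181) for IFIT3, and shEZH2#1 minus shEZH2#3 gave 1.12 ± 0.27 (adjusted p = 0.00448) and 0.82 ± 0.25 (adjusted p = 0.0222). After the GC and length correction IFIT2 kept both calls (at -0.63 ± 0.22, adjusted p = 0.048 with shEZH2#3), the latter not once the replicate block was added (log2 -0.65, adjusted p = 0.0622), and IFIT3 lost both (at -0.33 ± 0.21, adjusted p = 0.287 with shEZH2#3, at 0.60 ± 0.22, adjusted p = 0.0531 between the hairpins). The shEZH2#3 call of IFIT3 was also lost without shluc replicate 2 (log2 -0.62, adjusted p = 0.0828) or shEZH2#3 replicate 2 (log2 -0.61, adjusted p = 0.0863), and the difference between the hairpins without shEZH2#1 replicate 1 (log2 0.64, adjusted p = 0.144) or shEZH2#3 replicate 2 (log2 0.67, adjusted p = 0.103). IFIT2 overlaps exons of LIPA on the opposite strand, which stood at 20.1 CPM under shluc, 20.2 under shEZH2#1 and 19.1 under shEZH2#3, and the strand setting of the counts is not given in the sources used here.

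IFIT1 (ENSG00000185745, chr10:89392546-89406486, plus strand) stood at 1.75, 2.15 and 2.25 CPM under shluc, 2.60, 2.66 and 2.57 under shEZH2#1 and 1.20, 1.12 and 1.93 under shEZH2#3. The hairpins did not overlap, and the shEZH2#3 libraries overlapped shluc. Only the difference between the hairpins passed, at 0.87 ± 0.32 (adjusted p = 0.0498). It was lost under DESeq2, limma-voom, no filter and the GC and length correction (at 0.62 ± 0.28, adjusted p = 0.118), and in 7 of the 9 fits without a library, with log2 values of 0.73 to 0.88. Those 7 left out shluc replicate 1 or 3, any of the shEZH2#1 replicates, or shEZH2#3 replicate 1 or 2. IFI16 (ENSG00000163565, chr1:158999968-159055155, plus strand), a sensor of DNA in the nucleus and cytosol, stood at 5.11, 8.81 and 7.28 CPM under shluc, 6.78, 10.6 and 7.35 under shEZH2#1 and 3.66, 2.99 and 2.93 under shEZH2#3. The shEZH2#3 libraries lay below all others. The log2 difference was -1.15 ± 0.24 (adjusted p = 0.0011) with shEZH2#3 and 0.22 ± 0.23 (adjusted p = 0.537) with shEZH2#1, and the hairpins differed by 1.37 ± 0.25 (adjusted p = 0.000454). After the correction the difference between the hairpins passed (at 1.06 ± 0.22, adjusted p = 0.00233) and the shEZH2#3 call did not (at -0.57 ± 0.21, adjusted p = 0.0718). DDX60 (ENSG00000137628, chr4:168216293-168318807, minus strand) stood at 1.34, 1.87 and 1.49 CPM under shluc, 2.42, 3.26 and 2.35 under shEZH2#1 and 0.686, 1.12 and 0.884 under shEZH2#3. The 3 groups did not overlap, with shEZH2#1 highest and shEZH2#3 lowest. The hairpins differed by 1.58 ± 0.35 (adjusted p = 0.00276), while the differences from shluc, 0.77 ± 0.33 (adjusted p = 0.103) and -0.81 ± 0.36 (adjusted p = 0.0696), did not pass.

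PARP9 and DTX3L encode partner proteins of a complex for ADP-ribosylation and ubiquitination, and they lie head to head with overlapping exons on opposite strands. PARP9 (ENSG00000138496, chr3:122527924-122564577, minus strand) stood at 5.62, 6.58 and 3.79 CPM under shluc, 4.84, 7.49 and 5.14 under shEZH2#1 and 3.09, 3.06 and 2.21 under shEZH2#3. DTX3L (ENSG00000163840, chr3:122564238-122575203, plus strand) stood at 8.15, 11.2 and 5.94 CPM under shluc, 9.01, 8.94 and 6.91 under shEZH2#1 and 5.66, 4.12 and 6.63 under shEZH2#3. The shEZH2#3 libraries of PARP9 lay below all others, whereas those of DTX3L lay below shEZH2#1 and overlapped shluc. The log2 difference with shEZH2#3 was -0.94 ± 0.26 (adjusted p = 0.00751) for PARP9 and -0.62 ± 0.24 (adjusted p = 0.0377) for DTX3L, and neither call held after the GC and length correction (at -0.37 ± 0.24, adjusted p = 0.295 and -0.10 ± 0.19, adjusted p = 0.753). PARP9 also differed between the hairpins, by 1.07 ± 0.27 (adjusted p = 0.00598), and by 0.85 ± 0.24 (adjusted p = 0.0174) after the correction. That difference was lost without shEZH2#1 replicate 2 (log2 0.84, adjusted p = 0.0516). The call of DTX3L was lost under limma-voom and in the fit of only the groups compared, and without shluc replicate 1 (log2 -0.65, adjusted p = 0.0661) or 2 (-0.37, adjusted p = 0.241) or shEZH2#3 replicate 2 (log2 -0.46, adjusted p = 0.159). PARP14, their neighbour within chr3:122527924-122730840, passed in no comparison, at 6.92 ± 2.54 CPM under shluc, 5.69 ± 0.991 under shEZH2#1 and 5.24 ± 1.59 under shEZH2#3 (SD, n = 3).

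IFI35 (ENSG00000068079, chr17:43006725-43014456, plus strand), an interferon-induced leucine zipper protein, stood at 31.8, 21.3 and 34.0 CPM under shluc, 56.1, 46.9 and 51.4 under shEZH2#1 and 50.8, 43.3 and 39.7 under shEZH2#3. All 6 hairpin libraries lay above the shluc libraries, and the hairpins overlapped each other. IFI35 rose by 0.83 ± 0.17 (adjusted p = 0.003) with shEZH2#1 and by 0.62 ± 0.17 (adjusted p = 0.00788) with shEZH2#3. The corrected values were 0.45 ± 0.10 (adjusted p = 0.0083) and 0.05 ± 0.10 (adjusted p = 0.784), so the shEZH2#3 call was lost. Between the hairpins the difference of IFI35 was 0.21 ± 0.17 (adjusted p = 0.408), and it passed after the correction (at 0.41 ± 0.10, adjusted p = 0.00963). MX1, the antiviral GTPase that is often read as a marker of type I signalling, stood at 1.57, 1.12 and 1.58 CPM under shluc, 2.18, 2.78 and 2.13 under shEZH2#1 and 1.03, 2.68 and 1.10 under shEZH2#3. Its shEZH2#1 libraries lay above shluc, at a log2 difference of 0.74 ± 0.37 (adjusted p = 0.176), which did not pass. The difference with shEZH2#3 was 0.17 ± 0.38 (adjusted p = 0.737). The other members called in no comparison were HERC6, IFIT5, PLSCR1, SAMD9, SAMD9L, SP110 and TRIM21, with mean levels from 0.382 CPM (SAMD9L in shEZH2#1) to 24.2 CPM (TRIM21 in shEZH2#3).

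Several members known as strong interferon targets were at or near 0. CMPK2, EPSTI1, IFI44, IFI44L, MX2, RSAD2 and XAF1 failed the filter on low counts. Their highest estimated counts in any library were 1 for CMPK2 and IFI44L, 3 for EPSTI1, 5 for RSAD2 and XAF1, 15 for IFI44 and 16 for MX2. In the fit with no filter none of the 7 passed in any comparison. There MX2 and IFI44 stood at 1.92 (adjusted p = 0.151) and 1.58 (adjusted p = 0.162) with shEZH2#1, with unadjusted p of 0.0288 and 0.0317 by edgeR, and for IFI44 the 3 shEZH2#1 libraries lay above all shluc libraries.

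Some neighbouring genes had differences of the same sign. In the IFIT cluster on chromosome 10, IFIT2, IFIT3, IFIT1 and IFIT5 all had negative log2 differences with shEZH2#3 (-1.16, -0.76, -0.52 and -0.42), of which the first pair passed. After the GC and length correction IFIT1 and IFIT5 stood at 0.03 and 0.16, so the sign was no longer shared. In the IFITM cluster on chromosome 11, all 3 genes rose with shEZH2#3. HERC5 and HERC6, neighbours at chr4:88378739-88506163, had differences of -0.78 and -0.70 with shEZH2#3, of which the former passed. In the OAS cluster on chromosome 12, the differences of OAS1, OAS3 and OAS2 with shEZH2#1 were 0.24, -0.47 and 0.77, and none passed. Neighbours can share reads and GC content, and their part in the result was not tested.

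Fold changes ran with GC content across the whole transcriptome, and the members lay on that trend in part. The median GC content of the longest transcript was 57.2% in the 9 members higher with shEZH2#1, 56.1% in the 11 higher with shEZH2#3 and 44.1% in the 7 lower with shEZH2#3, against 51.4% in the 37 tested members and 50.3% in all tested genes. Across genes, which are not independent replicates, the rank correlation of log2 fold change with GC content was 0.40 in the members and 0.47 in all genes with shEZH2#1, and 0.73 and 0.69 with shEZH2#3. Between the hairpins it was -0.24 and -0.41. The libraries themselves differed in this respect: the rank correlation of a gene's deviation from its mean with GC content ran from -0.69 to -0.39 under shluc, from -0.25 to 0.25 under shEZH2#1 and from 0.37 to 0.64 under shEZH2#3. The difference in GC trend therefore runs with the groups, and its source and the effect of the hairpins cannot be told apart by these libraries.

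**Figure D3:**
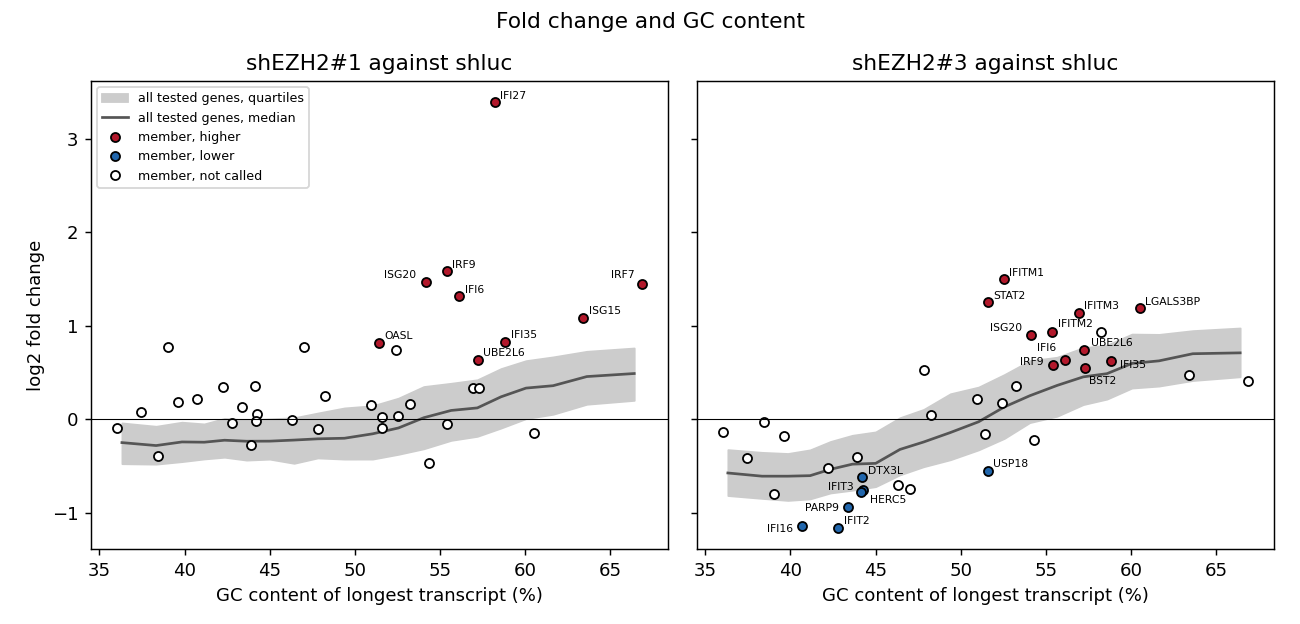
log2 fold change against shluc (y axis) and GC content of the longest transcript (x axis, %) of the 37 tested members, for shEZH2#1 (left) and shEZH2#3 (right). Red and blue points are members called higher and lower, open points are not called, and the gray line and band give the median and the span between the quartiles of all tested genes in bins of GC content. With shEZH2#3, IFI6, IRF9, IFI35 and BST2 lie on or near the band, while STAT2 and IFITM1 lie above it.

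With a smooth of GC content and length removed from each library, 11 members were higher and 3 lower with shEZH2#1, where 8.26% of all genes were higher and 9.89% lower. Of the 9 higher without the correction, 8 were shared, UBE2L6 was lost, and OAS1, DDX60 and HERC5 were gained. The 3 lower members were IFITM2, OAS3 and LGALS3BP. With shEZH2#3, 6 members were higher and 3 lower, where 12.7% of all genes were higher and 11.6% lower. The 6 higher members, ISG20, IFITM1, IFITM2, IFITM3, STAT2 and LGALS3BP, were all among the 11 uncorrected ones. Of the 7 lower members only IFIT2 and USP18 kept the call, and OAS3 was gained. Between the hairpins 15 members were higher in shEZH2#1 and 5 lower, where 13.2% and 15.1% of all genes were. Here 12 of the 14 higher members and 5 of the 5 lower ones were shared with the uncorrected fit, so that the contrast between the hairpins changed less than the contrast of shEZH2#3 with shluc. IFIT1 and IFIT3 were lost, and ISG20, IFI35 and USP18 were gained. After the correction the rank correlation with GC content in the members was -0.02, 0.12 and -0.03 in the 3 comparisons.

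**Figure D4:**
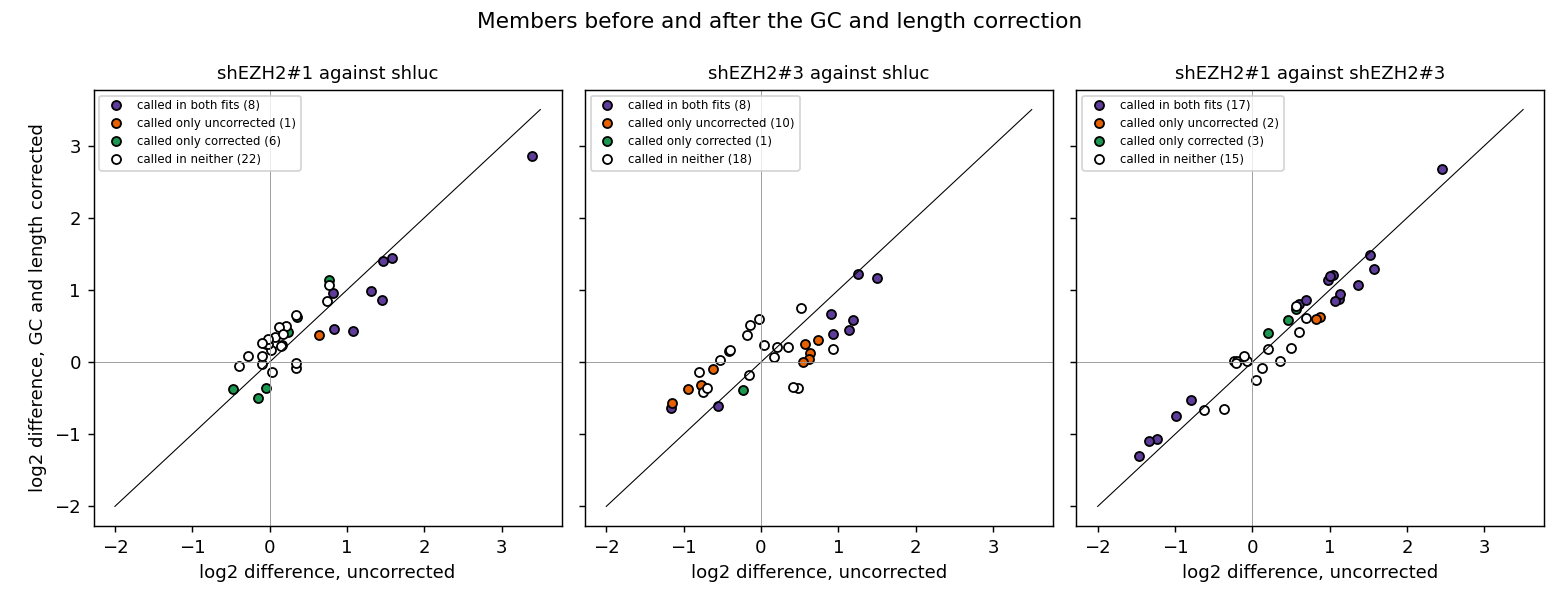
log2 difference of the 37 tested members before (x axis) and after (y axis) the GC and length correction, for each of the 3 comparisons; the diagonal marks equal values. Purple members were called in both fits, orange only without and green only with the correction. In the contrast of shEZH2#3 with shluc 10 members were called only without it, against 1 and 2 in the other comparisons.

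The rest of the pathway was read from 5 lists. None of the 21 interferon ligand genes passed the filter on low counts, and the highest count of any in a library was 4, or 0.159 CPM. Of 6 receptor chains, all tested, IFNAR1 was lower with both hairpins and the others passed in no comparison. IFNAR1, a chain of the type I receptor, stood at 10.3 ± 3.18 CPM under shluc, 5.73 ± 0.798 under shEZH2#1 and 5.09 ± 0.146 under shEZH2#3 (SD, n = 3), with log2 differences of -0.84 ± 0.22 (SE, adjusted p = 0.011) and -1.02 ± 0.22 (adjusted p = 0.00129). After the correction these were -0.49 (adjusted p = 0.041) and -0.40 (adjusted p = 0.0745), so the second did not pass. The corrected fit also called IL10RB higher with shEZH2#3 (0.83, adjusted p = 0.00149). Between the hairpins it called IL10RB (-0.72, adjusted p = 0.00303) and IFNAR2 (-0.45, adjusted p = 0.0346) lower in shEZH2#1. IFNAR2 held decimals in 9 libraries and IL10RB in 3.

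Of 10 tested kinases and transcription factors, 1 was higher and 2 lower with shEZH2#1, 4 higher and 2 lower with shEZH2#3, and 1 higher and 3 lower in shEZH2#1 than in shEZH2#3. The shares of all tested genes, given above, were 11.2% higher and 7.89% lower, 24.4% and 19.8%, and 9.46% and 15.5% in these comparisons, and in lists of 10 genes 1 call is 10%. The receptor kinase TYK2 stood at 75 ± 10.3 CPM under shluc, 96.4 ± 8.58 under shEZH2#1 and 140 ± 12.6 under shEZH2#3, and rose by 0.90 ± 0.15 (SE, adjusted p = 0.000154) with shEZH2#3, or by 0.33 ± 0.08 (adjusted p = 0.00886) after the correction. JAK1, the other receptor kinase named above, stood at 40.2 ± 7.37, 28.3 ± 0.92 and 28.6 ± 1.68 CPM (SD) in the same order. It was lower with both hairpins, at -0.51 ± 0.15 (SE, adjusted p = 0.0271) and -0.49 ± 0.15 (adjusted p = 0.0152). Neither call of JAK1 held after the correction (-0.20, adjusted p = 0.198 and -0.10, adjusted p = 0.509). STAT3, a target of cytokine receptors, fell by 1.04 ± 0.17 on the log2 scale (adjusted p = 0.000571) with shEZH2#1, from 104 ± 27.3 to 50.8 ± 1.14 CPM. IRF3, which switches on interferon genes after nucleic acid sensing, rose by 0.77 ± 0.15 (adjusted p = 0.00062) with shEZH2#3, a call lost after the correction (0.14, adjusted p = 0.215). IRF2BP1, a partner of the repressor IRF2, rose by 0.50 ± 0.17 (adjusted p = 0.0409) and 0.78 ± 0.17 (adjusted p = 0.00117) with shEZH2#1 and shEZH2#3, and after the correction both calls were lost and the first changed sign (-0.07, adjusted p = 0.689 and 0.03, adjusted p = 0.85).

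Of 10 tested genes listed as negative regulators, 1 was higher and 3 lower with shEZH2#1, 3 higher and 2 lower with shEZH2#3, and 1 higher and 4 lower in shEZH2#1 than in shEZH2#3. The phosphatase PTPN6 rose by 1.12 ± 0.16 (adjusted p = 3.59e-05) with shEZH2#3, and the phosphatase PTPN11 fell by 0.57 ± 0.18 (adjusted p = 0.0293) with shEZH2#1 and fell by 0.96 ± 0.18 (adjusted p = 0.000392) with shEZH2#3. The correction gave 0.56 (adjusted p = 0.00198) for PTPN6, and for PTPN11 -0.22 (adjusted p = 0.218), a lost call, and -0.35 (adjusted p = 0.0409). SOCS3, a feedback inhibitor of cytokine receptors, fell by 0.52 ± 0.15 (adjusted p = 0.0187) with shEZH2#1, and fell by 0.83 ± 0.13 (adjusted p = 0.000762) after the correction. UBA7 stands in this list but is the activating enzyme for ISG15 and no inhibitor. UBA7 rose by 0.83 ± 0.27 (adjusted p = 0.0382) with shEZH2#1 and by 1.33 ± 0.27 (adjusted p = 0.000719) with shEZH2#3, in the same directions as the conjugating enzyme UBE2L6. The corrected values were 0.63 (adjusted p = 0.0997), a lost call, and 0.85 (adjusted p = 0.0205).

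Of 54 other interferon-induced genes, 40 were tested. With shEZH2#1, 3 were higher and 3 lower, with shEZH2#3, 10 higher and 6 lower, and 3 were higher and 7 lower in shEZH2#1 than in shEZH2#3. These are 7.5% and 7.5%, 25% and 15%, and 7.5% and 17.5% of the 40, each within a few percentage points of the share of all tested genes. TYMP, thymidine phosphorylase, rose by 1.40 ± 0.18 (adjusted p = 6.48e-05) with shEZH2#1 and by 1.06 ± 0.18 (adjusted p = 0.000173) with shEZH2#3, and the corrected values were 0.74 (adjusted p = 0.000112) and 0.29 (adjusted p = 0.0278). PML, the scaffold of nuclear bodies, rose by 1.47 ± 0.16 (adjusted p = 6.32e-06) with shEZH2#3 and differed between the hairpins by -1.23 ± 0.16 (adjusted p = 2.41e-05). SHFL, an inhibitor of ribosomal frameshifting, rose by 1.00 ± 0.15 (adjusted p = 5.97e-05) with shEZH2#3, or by 0.57 (adjusted p = 0.0018) after the correction. OGFR, the opioid growth factor receptor, rose with both hairpins, by 0.49 ± 0.15 (adjusted p = 0.0304) and 1.07 ± 0.15 (adjusted p = 4.56e-05), of which the first was lost after the correction (0.13, adjusted p = 0.32) and the second was 0.45 (adjusted p = 0.00129).

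Immune cells respond strongly to interferon, so their markers were read in the same libraries. PTPRC, CD3E, CD3D, MS4A1 and NKG7 were at 0 in all 9 libraries, as were CLEC4C and LILRA4, which mark plasmacytoid dendritic cells. The 8 myeloid and plasmacytoid markers summed to 19.2 to 24.0, 16.7 to 21.1 and 25.8 to 29.7 CPM, from CD68 and CSF1R. The fibroblast markers COL1A2 and PDGFRA and the endothelial markers KDR and TIE1 were at 0 in all libraries. The 7 fibroblast markers summed to 59.5 to 68.3 CPM under shluc, 53.9 to 62.4 under shEZH2#1 and 79.5 to 118 under shEZH2#3, and the 4 endothelial markers found to 13.8 to 19.8, 7.97 to 8.29 and 28.4 to 32.7 CPM. These 3 summed levels were highest in shEZH2#3, as were STAT2, LGALS3BP and the IFITM genes, and their part in the result was not tested.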

How the data were processed

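Per the labels' protocols, the 9 libraries were built from poly(A) RNA with a TruSeq kit that marks strand by dUTP. The submitters' processing notes name GRCh38 (hg38), fastp, HISAT2 and StringTie without versions. How reads were counted, with which strand setting and how shared reads were split is not given in the sources used here, so overlapping and near-identical genes are uncertain. The authors deposited estimated counts per Ensembl gene, not normalized, with decimals in 14.7 to 18.5% of the nonzero values. All 9 single files matched the table of the series, and 0 of its value columns were left out.

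Counts were rounded and tested with edgeR 4.0.16 (R 4.3.3) in a quasi-likelihood fit of all 9 libraries with a mean per group, after filterByExpr and TMM scaling. The common dispersion was 0.0315. SE is the unshrunk log2 fold change divided by the square root of F, and SD is over 3 libraries. Adjusted p-values are Benjamini-Hochberg values over all 13252 genes. Libraries of a group differed by more than counting noise (chi-square divided by its degrees of freedom, 15.1 to 82.1), so each counted as 1 sample. Positions, GC content and length come from GENCODE 29 on GRCh38, with GC content for 97.7% of tested genes. The GC and length correction is a smooth per library (span 0.3) used as an offset. Alternatives were scaling by RLE or by the upper quartile, limma-voom (limma 3.58.1), DESeq2 1.42.0, no filter beyond 1 count, a filter of 1 CPM in 6 libraries, only the groups compared, the replicate block, that correction, fits without 2 abundant unnamed genes or mitochondrial genes, and each library left out. The code was tested on simulated data.

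Values per library are given for members called in any comparison and for STAT2, IRF7, MX1, OAS1 and IFIT1. From each pathway list up to 4 called genes with the lowest adjusted p are named, with JAK1, IFNAR2 and IL10RB besides. The members and lists were chosen with earlier results of these data known, so no p adjusted over a list alone is given.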

Additional observations from a re-analysis of the deposited data

Results flagged for a closer look

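For 19 of the 37 tested members (51.4%) the change against shluc differed between the hairpins, by the edgeR test of shEZH2#1 minus shEZH2#3, as it did for 25% of all tested genes. Among 14 members that stood higher in shEZH2#1, the log2 difference was 2.45 for IFI27, 1.58 for DDX60, 1.52 for OAS2, 1.37 for IFI16, 1.13 for HERC5, 1.12 for IFIT2, 1.07 for PARP9, 1.04 for IRF7, 1.01 for IRF9, 0.97 for OASL, 0.87 for IFIT1, 0.82 for IFIT3, 0.69 for IFI6 and 0.61 for ISG15. Among 5 members that stood lower in shEZH2#1, it was -1.46 for IFITM1, -1.34 for LGALS3BP, -1.23 for STAT2, -0.98 for IFITM2 and -0.80 for IFITM3. EZH2 itself differed between the hairpins by 0.02 ± 0.19 (SE, adjusted p = 0.943), at 10.1 ± 2.41 and 9.94 ± 0.989 CPM (SD, n = 3). The hairpins also differed in GC trend, and 12 of the 14 higher and 5 of the 5 lower differences passed after the GC and length correction.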

How the results depend on the processing

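Of 46 calls of named members, 34 passed in every fit that left out a library and 12 failed in at least 1 of them. Members higher with shEZH2#1 numbered 8 to 10 over these fits, members lower with shEZH2#1 0 to 1, members higher with shEZH2#3 9 to 12 and lower 4 to 8, and members higher in shEZH2#1 than in shEZH2#3 9 to 16, with 5 lower in each. Calls gained when a library was left out were of ISG15, ISG20, IFI27, OAS2, OAS3, USP18, BST2, DTX3L and IRF1. The shEZH2#3 call of IFIT2 passed under the GC and length correction and was lost with the replicate block added to it.

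Members lower with shEZH2#1 numbered 1 under upper quartile scaling, no filter, the stricter filter and the fit of only the groups compared, 3 under the GC and length correction and 2 with the replicate block added to it. The correction left 6 members higher and 3 lower with shEZH2#3, or 6 and 2 with the block. BST2 turned from 0.55 to -0.0043 with shEZH2#3 under the correction and to -0.01 with the block. Of the called directions of named members, none other reversed under the alternatives run. Upper quartile scaling moved the median of all genes to -0.18 with shEZH2#3 and to 0.18 between the hairpins, with 2421 genes higher and 3720 lower with shEZH2#3 against 3237 and 2624 under TMM. Relative to that shift IFI6 and IRF9 lost the shEZH2#3 call. The cause of these changes was not tested.

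Receptor chains called with shEZH2#1 numbered 0 to 1 over the fits without a library and 0 under the correction with the block; between the hairpins 0 to 1, and 2 under the correction with or without the block. Kinases and transcription factors called numbered 1 to 4 with shEZH2#1 and 3 to 6 with shEZH2#3 over the fits without a library, and 2 with shEZH2#3 under the correction with or without the block. Negative regulators called numbered 0 to 4 with shEZH2#1 and 3 to 8 between the hairpins over those fits; the correction gave 3 with shEZH2#3, and with the block 2 with shEZH2#1, 2 with shEZH2#3 and 3 between the hairpins. Other interferon-induced genes called numbered 2 to 8 with shEZH2#1 and 10 to 18 with shEZH2#3 over those fits, 7 with shEZH2#3 under the correction with or without the block, and 3 with shEZH2#1 under the replicate block alone.

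The replicate numbers are shared across groups in the labels only: correlations of same-numbered libraries ran from -0.12 to 0.08, and 0 of 9 libraries correlated best with their own number. With the replicate block, 12 members were higher and 6 lower with shEZH2#3, with the call of DTX3L lost and that of ISG15 gained. Between the hairpins the block lost the call of IFIT1 and gained that of ISG20. The median level of the tested members was 7.27 CPM in shluc and 6.41 in shEZH2#3, and 8.70 and 5.54 on unscaled totals. Depth limits the 7 untested members, whose highest count was 16.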
